A study of Mus musculus with 19 samples.

Results

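Collagen chain genes were examined in 4 embryonic mouse tissues. They were taken as every gene whose symbol is Col, a number, the letter a and a number, except *Col17a1*, and each was represented by its brightest probe set, the one with the highest mean log2 intensity over all samples. The rule gave 41 genes with 81 probe sets, of 18193 genes named on the array, and 40 of the 41 had a probe set that entered the tests (*Col6a5* did not, since every sample lay below the signal minimum of 20). By textbook class 11 were fibrillar, 6 were basement membrane chains (type IV), 9 were FACITs (fibril-associated collagens with interrupted helices) and 15 were of other types. The study set out to compare urogenital sinus epithelium (UGE) with urogenital sinus mesenchyme (UGM), the tissues from which the prostate forms, and used back skin to find what other epithelia and mesenchymes share with them. Total RNA of C57BL/6 embryos at embryonic day 16 was hybridised to MOE430 2.0 arrays, 19 in all (UGE, n = 6; UGM, n = 5; epidermis, n = 4; dermis, n = 4). The labels name no treatment, and each sample was a pool of embryos, so the spread and every p-value below are those between pools. Pools of different groups could share embryos, since the skin and the urogenital sinus were taken from the same animals. UGE and UGM were parted with trypsin, whereas skin was parted by hand after a night in dispase in the cold, so the site and the separation method cannot be told apart.

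Collagens are secreted proteins in which chains wind around one another into a helix, and each type is built from its own set of chains. Fibrillar collagens form the tensile fibrils of connective tissue, type IV collagen forms the sheet under every epithelium and around vessels, FACITs decorate fibrils, type VI forms beaded filaments and type VII forms the anchoring fibrils that hold an epithelium to the tissue beneath it. Mesenchymal fibroblasts are the main source of fibrillar collagens, while a basement membrane can be built from both of its sides. Type IV chains are encoded by 6 genes that lie in head-to-head pairs, *Col4a1* with *Col4a2*, *Col4a3* with *Col4a4* and *Col4a5* with *Col4a6*.

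The start regions of both pairs of type IV genes that differed between the compartments, and of *Col7a1* and *Col1a2*, are shown because these genes moved in opposite directions. They are RefSeq windows of build GRCm38.p6, from 250 bases before to 50 bases after the annotated start, written 5′ to 3′ on the gene's own strand. Capitals mark the places where a search of both strands found one of 3 short motifs. The first motif was the TATA box, searched as TATAAA. The second was the CCAAT box, which reads ATTGG when it lies on the other strand. The third was the GC box, searched as GGGCGG, whose reverse reads CCGCCC.
Col4a1: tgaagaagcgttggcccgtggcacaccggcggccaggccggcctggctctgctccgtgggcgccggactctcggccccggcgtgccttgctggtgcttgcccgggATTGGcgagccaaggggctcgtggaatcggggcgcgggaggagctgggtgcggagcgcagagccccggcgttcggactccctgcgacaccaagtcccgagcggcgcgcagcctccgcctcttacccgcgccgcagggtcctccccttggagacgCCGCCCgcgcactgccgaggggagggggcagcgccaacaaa
Col4a2: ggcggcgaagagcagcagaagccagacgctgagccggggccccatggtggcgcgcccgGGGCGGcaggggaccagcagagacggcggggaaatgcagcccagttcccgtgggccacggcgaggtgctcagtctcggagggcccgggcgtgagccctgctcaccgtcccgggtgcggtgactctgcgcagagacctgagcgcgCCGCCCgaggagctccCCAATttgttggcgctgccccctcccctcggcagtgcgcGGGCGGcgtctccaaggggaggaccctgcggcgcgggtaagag
Col4a5: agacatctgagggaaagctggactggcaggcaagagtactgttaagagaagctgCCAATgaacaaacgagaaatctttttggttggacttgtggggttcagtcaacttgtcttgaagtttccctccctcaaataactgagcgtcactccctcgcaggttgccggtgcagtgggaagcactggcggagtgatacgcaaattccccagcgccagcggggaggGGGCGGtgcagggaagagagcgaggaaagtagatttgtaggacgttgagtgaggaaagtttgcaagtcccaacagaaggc
Col4a6: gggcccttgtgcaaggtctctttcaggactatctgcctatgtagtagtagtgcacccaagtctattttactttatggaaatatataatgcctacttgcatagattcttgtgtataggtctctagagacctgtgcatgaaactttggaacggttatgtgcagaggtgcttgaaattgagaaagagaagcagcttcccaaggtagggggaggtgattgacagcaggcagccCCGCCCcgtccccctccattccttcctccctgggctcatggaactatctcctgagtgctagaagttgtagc
Col7a1: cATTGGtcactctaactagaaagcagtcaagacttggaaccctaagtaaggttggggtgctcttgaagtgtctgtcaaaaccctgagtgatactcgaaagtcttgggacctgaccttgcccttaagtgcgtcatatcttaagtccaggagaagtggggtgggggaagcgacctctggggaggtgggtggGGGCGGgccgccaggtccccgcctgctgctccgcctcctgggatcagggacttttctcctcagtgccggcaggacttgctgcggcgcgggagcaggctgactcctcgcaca
Col1a2: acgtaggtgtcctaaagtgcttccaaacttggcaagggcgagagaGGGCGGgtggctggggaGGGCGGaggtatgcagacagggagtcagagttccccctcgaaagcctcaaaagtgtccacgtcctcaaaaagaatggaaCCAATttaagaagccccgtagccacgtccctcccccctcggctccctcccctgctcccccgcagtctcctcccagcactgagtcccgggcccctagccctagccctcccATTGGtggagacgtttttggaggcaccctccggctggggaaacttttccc

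The *Col4a1* window lies at chr8:11312777-11313076 on the minus strand and the *Col4a2* window at chr8:11312555-11312854 on the plus strand. Their starts are 21 bases apart and the windows share 78 bases. The *Col4a5* window is at chrX:141475169-141475468 (plus strand) and the *Col4a6* window at chrX:141474027-141474326 (minus strand), with 1343 bases between the starts and no shared base. Those of *Col7a1* (chr9:108953336-108953635) and *Col1a2* (chr6:4505368-4505667) are on the plus strand. Of the 41 genes 32 had a window, 35 windows in all because 3 genes had more than 1 start. GGGCGG was present in 22 of these 35 (62.9%) and in 35.7% of the 32851 windows of all genes. CCAAT was present in 12 (34.3%, against 37.4% of all windows) and TATAAA in 4 (11.4%, against 13.6%). A match describes the letters of a window and is not evidence of a bound site.

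Values are log2 intensity per probe set. The lower quartile of an array lay between 4.70 and 4.92 and no detection call was used, so a group near that level is not shown to be above background. Markers set the tissues apart as labelled, with limits that touch several collagens. The median of 15 epithelial markers was 12.32 to 12.55 in UGE, 11.94 to 12.56 in epidermis, 6.57 to 8.12 in UGM and 8.40 to 10.64 in dermis, so the dermis samples carried epithelial transcripts. The median of 14 mesenchymal markers, with no collagen among them, was 11.12 to 11.64 in UGM, 11.71 to 12.24 in dermis, 7.84 to 9.56 in epidermis and 5.29 to 8.19 in UGE. Within UGE, replicates 2 and 3 had mesenchymal medians of 8.19 and 8.05 and replicate 1 had 7.22, whereas replicates 4 to 6 lay between 5.29 and 5.70. Of the 14 markers 10 were higher in both replicates 2 and 3 than in any of replicates 4 to 6, *Snai2* and *Dcn* were lower in both, and *Lum* and *Fap* were neither. For this reason the calls that changed, and the called genes whose fold moved by more than 1.5 times, without replicates 2 and 3 are given below. In bulk samples, fewer cells of a type and less RNA per cell cannot be told apart.

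Most collagen chains that differed were lower in the epithelium, at both sites. A gene was called different at a limma adjusted p under 0.01 and a change of more than 2-fold. Between UGE and UGM, 24 of the 40 tested genes were called lower in UGE, 3 were called higher and 13 were not called, while 7.4% of all 41549 tested probe sets were called lower and 5.85% higher. Between epidermis and dermis, 24 were called lower in epidermis, 0 higher and 16 were not called (limma), against 7.6% and 6.07% of all probe sets. The methods' t-test also gave 0 higher in epidermis. At an unadjusted p under 0.05 there were 2, *Col4a5* and *Col4a6*, which were higher in every epidermis sample than in any dermis sample but by less than 2-fold. The median log2 difference over the 40 genes was -2.06 for UGE vs UGM and -1.78 for epidermis vs dermis, where the medians over all probe sets were 0.06 and 0.05. At both sites 22 genes were called lower in the epithelium. *Col9a2* and *Col13a1* were called lower in the urogenital sinus alone, and *Col5a3* and *Col19a1* in the skin alone. *Col4a5*, *Col4a6* and *Col7a1* were the 3 called higher in UGE, and 11 genes were called at neither site. The dermis had the highest mean for 25 of the 41 genes, UGM for 11, UGE for 3 and epidermis for 2.

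**Figure D1:**
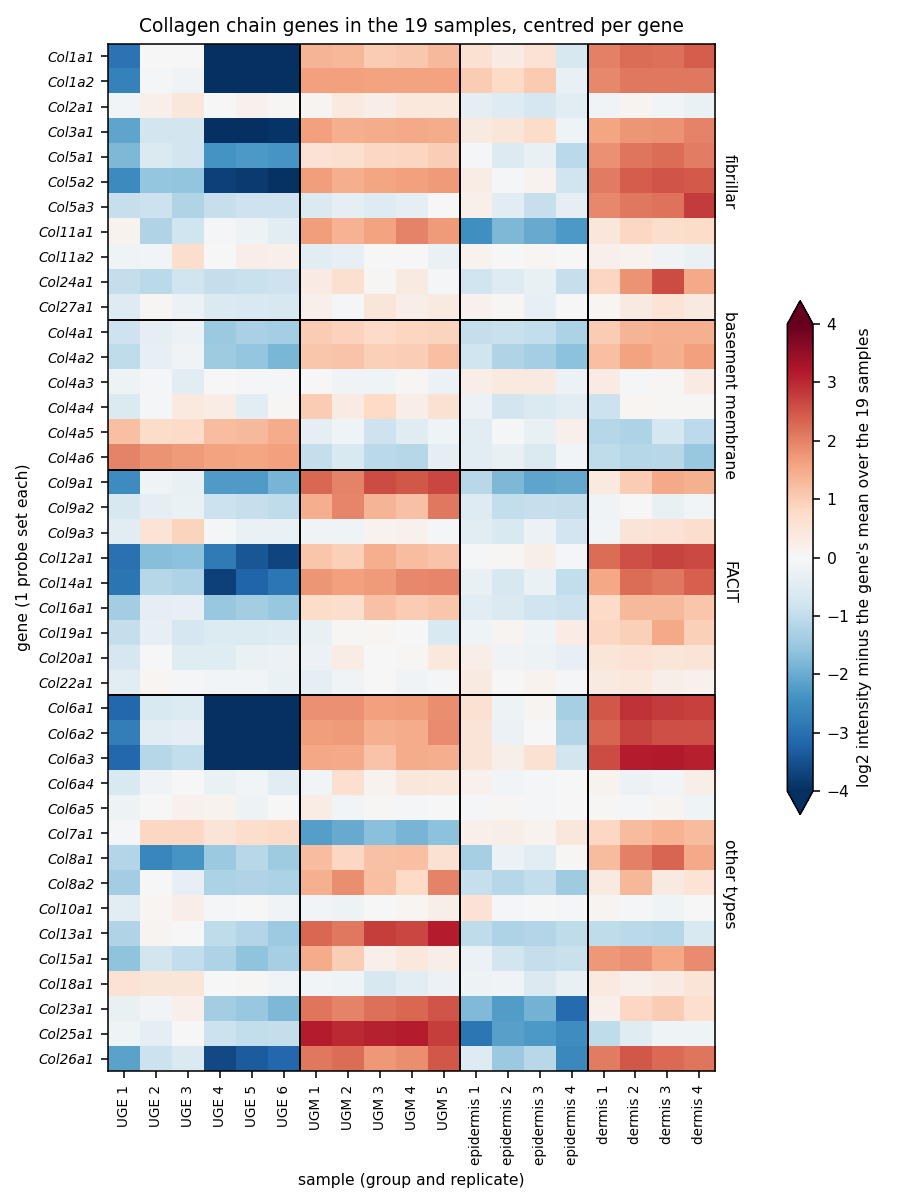
Log2 intensity of 41 collagen chain genes (rows, grouped by class) in 19 samples (columns), minus each gene's mean over the 19 samples, with colours ending at 4 above and below that mean. Rows such as *Col1a2*, *Col3a1*, *Col6a1*, *Col12a1* and *Col14a1* are high in all UGM and dermis samples and low in UGE replicates 4 to 6. Other FACIT rows, such as *Col9a2* and *Col22a1*, are not high in all of these samples. *Col4a5* and *Col4a6* are highest in UGE.

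Of the fibrillar collagens, limma called 7 of 11 lower in UGE, 8 of 11 lower in epidermis and 0 higher in either. The methods' t-test called 5 lower in UGE, 7 lower in epidermis and 0 higher in either, losing *Col1a1* in UGE and *Col1a2* in both epithelia. At an unadjusted p under 0.05 limma gave 1 fibrillar gene higher in UGE, *Col11a2*, and 0 higher in epidermis. *Col1a1* and *Col1a2* encode the chains of type I collagen, the main collagen of skin, tendon and bone. *Col1a2* ranged from 7.35 to 12.73 in UGE with a median of 8.85, and was 14.43, 14.43, 14.39, 14.41 and 14.41 in UGM. It was 13.82, 13.59, 13.85 and 12.48 in epidermis and 14.71, 14.90, 14.89 and 14.89 in dermis. The epithelial and mesenchymal samples did not overlap at either site, but the UGE samples spread over more than 5 log2 units while the UGM samples nearly coincided. The log2 difference was -4.77 ± 1.01 (SE, adjusted p = 0.00261) between UGE and UGM and -1.42 ± 0.27 (adjusted p = 0.00246) between epidermis and dermis. *Col1a1* ranged from 5.73 to 10.12 in UGE (median 6.64) and was 11.50, 11.46, 11.15, 11.22 and 11.44 in UGM. In skin it was 10.75, 10.47, 10.71 and 9.51 in epidermis and 12.15, 12.39, 12.34 and 12.58 in dermis. The compartments were again apart at both sites, by -3.83 ± 0.82 (adjusted p = 0.00276) and -2.01 ± 0.25 (adjusted p = 0.000211).

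*Col3a1*, whose type III collagen joins type I in soft tissue, and *Col5a2*, a chain of the type V collagen found inside type I fibrils, followed the same order. *Col3a1* ranged from 8.56 to 12.23 in UGE (median 9.95) and was 14.59, 14.42, 14.44, 14.47 and 14.44 in UGM. It was 13.32, 13.44, 13.68 and 12.77 in epidermis and 14.52, 14.73, 14.74 and 14.95 in dermis. The differences were -4.21 ± 0.68 (adjusted p = 0.000364) in the urogenital sinus and -1.43 ± 0.18 (adjusted p = 0.00024) in the skin, with no overlap of the compartments. *Col5a2* ranged from 7.57 to 9.98 in UGE (median 8.39) and was 13.20, 12.99, 13.12, 13.18 and 13.25 in UGM. It was 11.84, 11.49, 11.68 and 10.73 in epidermis and 13.60, 13.97, 14.06 and 14.0 in dermis. Its differences were -4.48 ± 0.45 (adjusted p = 6.49e-06) and -2.47 ± 0.23 (adjusted p = 3.16e-05), and here all 4 tissues were apart, in the order dermis, UGM, epidermis and UGE. Of the other fibrillar genes, *Col5a1*, *Col11a1* and *Col24a1* were called lower in the epithelium at both sites, with log2 differences between -2.82 and -1.18. *Col24a1* lay below the lower quartile of the arrays in UGE and epidermis and near it in UGM (means of 3.64 in UGE, 4.81 in UGM and 3.92 in epidermis, against 6.24 in dermis), and both of its calls were lost with log2(value + 50). *Col11a1*, a chain of the cartilage-type fibril that is also made in other embryonic tissues, had means of 6.86 in UGE, 8.94 in UGM, 5.13 in epidermis and 7.95 in dermis. *Col2a1* and *Col11a2*, the other chains of cartilage fibrils, were not called, nor was *Col27a1*, although the other probe set of *Col27a1* was called lower in UGE (-1.18 ± 0.12).

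The size of the fall in UGE for type I, III and VI chains rested on which UGE samples were counted. *Col1a2* was 12.73 and 12.64 in UGE replicates 2 and 3 and 10.09 in replicate 1, against 7.35, 7.42 and 7.62 in replicates 4 to 6. The same samples were high for 10 of the 14 mesenchymal markers and low for 2, whose part in these values was not tested. Without replicates 2 and 3 the same 24 genes were called lower and the same 3 higher in UGE than in UGM. The difference was larger for 21 of the 24 and smaller for *Col8a1*, *Col11a1* and *Col24a1*, and the fold moved by more than 1.5 times for 10. *Col1a2* then differed by -6.29 ± 0.47 (78.5-fold, against 27.3-fold with all samples) and *Col6a1* by -6.21 ± 0.32 (73.9-fold against 30.2-fold). The other type VI chains went from 23.6-fold to 56.5-fold lower (*Col6a2*) and from 26.4-fold to 57.4-fold (*Col6a3*). Among fibrillar chains *Col1a1* went from 14.3-fold to 35.1-fold lower, *Col3a1* from 18.5-fold to 36.5-fold and *Col5a2* from 22.3-fold to 35.1-fold. *Col9a1* went from 15.7-fold to 24.7-fold lower, *Col14a1* from 20.0-fold to 31.8-fold and *Col26a1* from 20.6-fold to 35.4-fold. *Col4a6*, in contrast, differed by 2.53 ± 0.17 without them and 2.54 ± 0.15 with them.

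**Figure D2:**
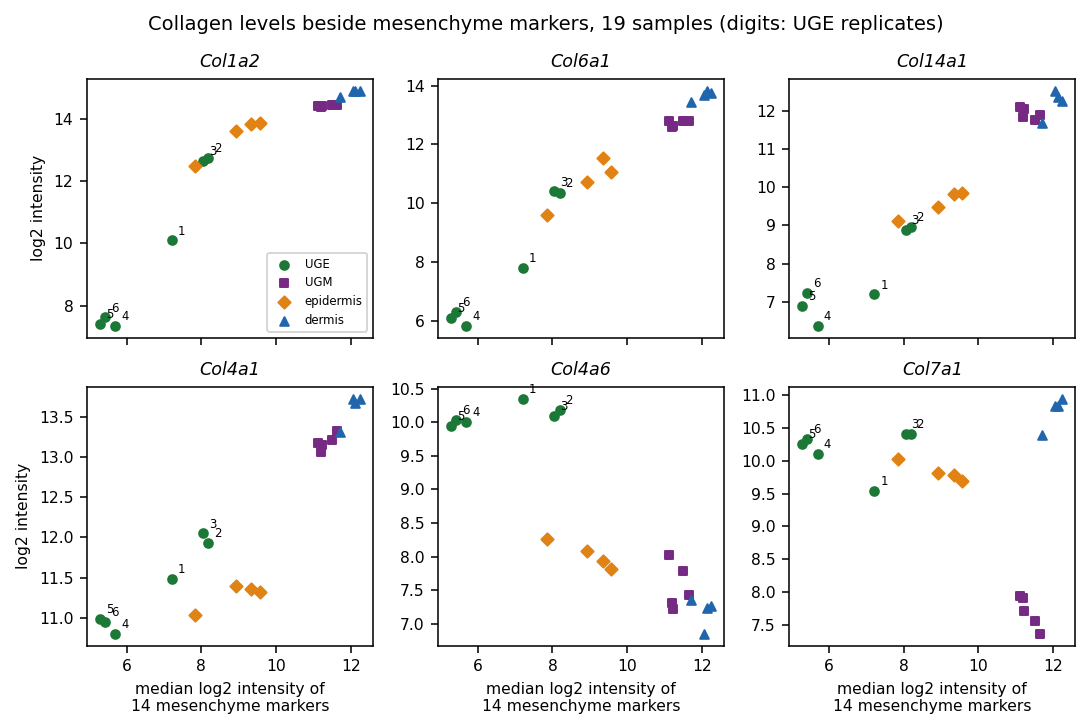
Log2 intensity of 6 collagen genes (vertical axes) against the median log2 intensity of 14 mesenchymal markers (horizontal axis) in 19 samples, with digits naming the UGE replicates. *Col1a2*, *Col6a1* and *Col14a1* are highest in the samples with the highest marker medians and in UGE are highest in replicates 2 and 3, whereas *Col4a6* keeps within 9.94 to 10.35 over all 6 UGE samples.

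The basement membrane chains split by gene pair. *Col4a1* and *Col4a2*, which make the type IV collagen of nearly all basement membranes, were lower in both epithelia. *Col4a1* ranged from 10.80 to 12.05 in UGE (median 11.24) and was 13.33, 13.21, 13.07, 13.15 and 13.18 in UGM. It was 11.36, 11.40, 11.32 and 11.04 in epidermis and 13.31, 13.67, 13.73 and 13.73 in dermis. Each epithelium lay wholly below its mesenchyme, by -1.82 ± 0.22 (adjusted p = 3.25e-05) and -2.33 ± 0.13 (adjusted p = 3.82e-06). *Col4a2* ranged from 8.83 to 10.51 in UGE (median 9.44) and was 11.76, 11.80, 11.60, 11.65 and 11.85 in UGM. It was 9.86, 9.44, 9.30 and 9.01 in epidermis and 11.86, 12.26, 12.12 and 12.28 in dermis. The differences were -2.13 ± 0.28 (adjusted p = 6.37e-05) and -2.73 ± 0.18 (adjusted p = 6.16e-06). Between the sites neither chain was called, with *Col4a1* differing by -0.42 ± 0.21 between UGM and dermis and by 0.09 ± 0.20 between UGE and epidermis. The medians of 8 endothelial markers, from cells that also make these chains, moved the same way, from 4.86 to 5.72 in UGE and 5.41 to 5.74 in epidermis to 7.94 to 8.59 in UGM and 9.02 to 9.56 in dermis, and their part in the difference was not tested.

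*Col4a5* and *Col4a6*, the chains of the minor type IV network found in some epithelial and smooth muscle basement membranes, were higher in the epithelium. *Col4a6* ranged from 9.94 to 10.35 in UGE (median 10.06) and was 7.43, 7.78, 7.31, 7.22 and 8.03 in UGM. It was 7.93, 8.08, 7.81 and 8.26 in epidermis and 7.35, 7.24, 7.26 and 6.85 in dermis. UGE lay far above the other tissues, and epidermis lay above dermis without overlap. The difference was 2.54 ± 0.15 for UGE vs UGM (5.83-fold, adjusted p = 3.87e-08), 0.85 ± 0.14 for epidermis vs dermis (adjusted p = 0.00121, under 2-fold) and 2.08 ± 0.15 for UGE vs epidermis (adjusted p = 1.8e-09). *Col4a5* ranged from 11.07 to 11.81 in UGE (median 11.57) and was 9.94, 10.16, 9.50, 9.84 and 10.16 in UGM. It was 9.90, 10.27, 10.04 and 10.54 in epidermis and 9.19, 9.09, 9.64 and 9.30 in dermis. UGE again stood apart from the other 3 tissues, with differences of 1.54 ± 0.16 from UGM (2.91-fold, adjusted p = 1.03e-05) and 1.27 ± 0.17 from epidermis (adjusted p = 8.6e-06), and epidermis exceeded dermis by 0.88 ± 0.17 (adjusted p = 0.0024, under 2-fold). The other probe sets of both genes were also called higher in UGE than in UGM, by 1.19 ± 0.24 for *Col4a5* and 1.44 ± 0.17 for *Col4a6*. The *Col4a5* difference from epidermis was not called with its other probe set (0.68 ± 0.23, adjusted p = 0.0272).

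*Col4a3* and *Col4a4*, the chains of the mature kidney glomerular network, were not called in any comparison. *Col4a3* stayed between 4.51 and 5.31 in all 19 samples, close to the lower quartile of the arrays. *Col4a4* ranged from 4.87 to 5.85 in UGE (median 5.46) and was 6.47, 5.79, 6.27, 5.72 and 6.07 in UGM. It was 5.23, 4.71, 4.87 and 5.01 in epidermis and 4.61, 5.53, 5.50 and 5.50 in dermis, so that the groups overlapped within each site and the largest difference within a site was -0.66 ± 0.20 (adjusted p = 0.0199).

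**Figure D3:**
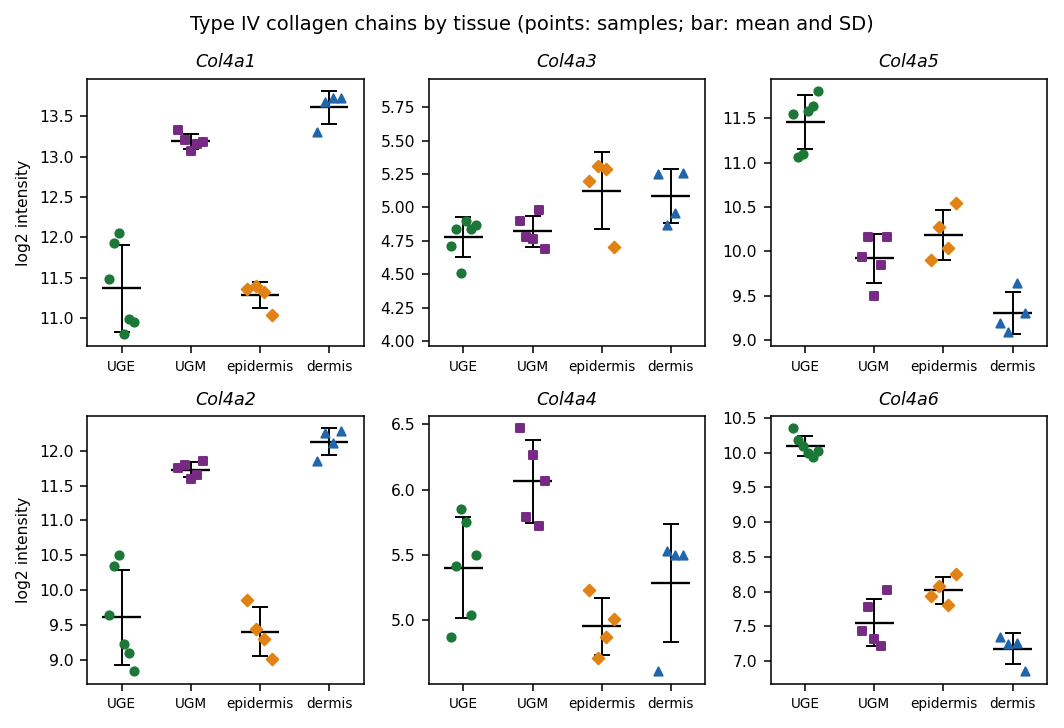
Log2 intensity of the 6 type IV collagen chains in each sample (points) of UGE (n = 6), UGM (n = 5), epidermis (n = 4) and dermis (n = 4), with the mean and SD in black and a separate vertical axis for each gene. *Col4a1* and *Col4a2* are high in both mesenchymes, *Col4a5* and *Col4a6* are highest in UGE, and *Col4a3* lies between 4.51 and 5.31 throughout.

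Among the FACITs, limma called 5 of 9 lower in UGE than in UGM, 5 of 9 lower in epidermis than in dermis and 0 higher in either, also at an unadjusted p under 0.05. The methods' t-test called 5 lower in UGE, 4 lower in epidermis (without *Col19a1*) and 0 higher in either. *Col14a1* and *Col12a1*, whose products bind type I fibrils, had the same order as those fibrils. *Col14a1* ranged from 6.38 to 8.97 in UGE (median 7.22) and was 11.88, 11.76, 11.83, 12.05 and 12.08 in UGM. It was 9.81, 9.49, 9.86 and 9.12 in epidermis and 11.67, 12.36, 12.24 and 12.52 in dermis. The epithelia were apart from the mesenchymes by -4.33 ± 0.43 (20.0-fold, adjusted p = 5.72e-06) and -2.62 ± 0.21 (6.16-fold, adjusted p = 1.66e-05). *Col12a1* ranged from 4.71 to 6.73 in UGE (median 5.46) and was 9.50, 9.34, 9.83, 9.61 and 9.53 in UGM. It was 8.31, 8.44, 8.62 and 8.32 in epidermis and 10.61, 10.97, 11.08 and 11.02 in dermis. No tissue overlapped another, with differences of -3.90 ± 0.35 (adjusted p = 2.26e-06) and -2.50 ± 0.13 (adjusted p = 3.21e-06). Another bright probe set of *Col12a1*, with a mean of 8.12, was called lower at both sites too but by less (-1.13 ± 0.11 and -1.75 ± 0.13), while a further one of *Col14a1*, with a mean of 8.76, gave -3.68 ± 0.32 and -2.50 ± 0.20. Those of *Col12a1* and *Col14a1* with mean levels of 3.88 to 4.47 were flat between UGE and UGM, and the call of *Col12a1* in skin was lost when all its probe sets were averaged.

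*Col9a1* and *Col9a2*, chains of the type IX collagen that coats type II fibrils in cartilage, were highest in UGM. The medians of 9 cartilage markers lay between 4.99 and 5.94 in all tissues, but single markers differed. *Hapln1*, a cartilage link protein, was also highest in UGM, at 6.25 to 7.04 against 4.79 to 5.17 in dermis and 3.98 to 5.36 in the epithelia, and was called in UGE vs UGM (-1.61 ± 0.27) and UGM vs dermis (1.43 ± 0.25). *Cnmd*, another of the 9 markers, was highest in dermis instead. It was 6.41 to 6.91 in dermis, 4.54 to 4.97 in UGM and 4.05 to 4.75 in the epithelia. Between UGM and dermis 1 cartilage marker was called higher and 1 lower. *Sox9*, a transcription factor of cartilage and of several epithelia, was highest in UGE (7.75 to 8.70), and the part of these markers in the type IX levels was not tested. *Col9a1* ranged from 4.60 to 6.92 in UGE (median 5.06) and was 9.41, 9.08, 9.72, 9.59 and 9.77 in UGM. It was 6.0, 5.30, 5.0 and 5.05 in epidermis and 7.51, 8.13, 8.62 and 8.54 in dermis. The mesenchymes lay above their epithelia with no overlap, the differences being -3.97 ± 0.42 (adjusted p = 1.11e-05) and -2.86 ± 0.28 (adjusted p = 4.72e-05). The other probe set of *Col9a1* was not called, at -0.59 ± 0.10 and -0.28 ± 0.13. *Col9a2* ranged from 4.77 to 5.52 in UGE (median 5.03) and was 7.24, 7.74, 7.15, 6.97 and 7.89 in UGM. It was 5.28, 4.82, 4.88 and 4.83 in epidermis and 5.64, 5.77, 5.50 and 5.67 in dermis. UGM was apart from all other tissues, by 2.29 on the log2 scale over UGE (UGE minus UGM -2.29 ± 0.19, adjusted p = 1.47e-06) and by 1.75 ± 0.19 over dermis (adjusted p = 5.35e-07). *Col9a3* was not called with its brightest probe set, while its other probe set was called lower in epidermis than in dermis (-1.45 ± 0.25). *Col16a1* was called lower in the epithelium at both sites, *Col19a1* in the skin alone (-1.04 ± 0.17), and *Col20a1* and *Col22a1* at neither. Of the other probe sets of *Col19a1*, that with a mean of 4.72 was also called lower in epidermis (-1.34 ± 0.20). That with a mean of 4.94 was not called (0.33 ± 0.10).

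Among the other types, the type VI chains *Col6a1*, *Col6a2* and *Col6a3*, which assemble into a common monomer, fell together. *Col6a1* ranged from 5.83 to 10.40 in UGE (median 7.05) and was 12.79, 12.78, 12.59, 12.62 and 12.81 in UGM. It was 11.55, 10.73, 11.05 and 9.61 in epidermis and 13.44, 13.83, 13.75 and 13.67 in dermis. The compartments were apart at both sites, by -4.92 ± 0.83 (30.2-fold, adjusted p = 0.000512) and -2.94 ± 0.34 (7.67-fold, adjusted p = 0.000125). *Col6a2* ranged from 6.46 to 10.84 in UGE (median 7.56) and was 12.86, 12.90, 12.63, 12.68 and 13.09 in UGM. It was 11.71, 10.96, 11.20 and 10.01 in epidermis and 13.52, 13.91, 13.76 and 13.78 in dermis. Its differences of -4.56 ± 0.83 (adjusted p = 0.000854) and -2.77 ± 0.30 (adjusted p = 8.31e-05) were close to those of *Col6a1*. *Col6a3* ranged from 5.84 to 9.79 in UGE (median 6.84) and was 12.32, 12.29, 11.94, 12.27 and 12.24 in UGM. It was 11.31, 11.01, 11.39 and 10.04 in epidermis and 13.40, 13.93, 13.96 and 13.90 in dermis. The tissues did not overlap, and the differences were -4.72 ± 0.73 (adjusted p = 0.000259) and -2.86 ± 0.28 (adjusted p = 4.35e-05). *Col6a4* stayed between 4.89 and 6.16 and *Col6a5* between 3.44 and 3.94, below the median of every array.

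*Col26a1*, a little-studied collagen with short helical stretches, had the largest fall in the skin among the tested collagens. It ranged from 4.82 to 7.86 in UGE (median 5.80) and was 10.55, 10.68, 10.18, 10.31 and 10.93 in UGM. It was 7.92, 6.95, 7.32 and 5.86 in epidermis and 10.53, 10.93, 10.70 and 10.58 in dermis. The mesenchymes overlapped each other and lay well above both epithelia, the differences being -4.37 ± 0.53 (adjusted p = 3.24e-05) and -3.67 ± 0.36 (adjusted p = 4.36e-05). A dimmer probe set with a mean of 4.32 was not called in either comparison.

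*Col7a1*, which encodes the anchoring fibril collagen, had the largest called interaction, the difference between the sites in how far epithelium and mesenchyme lay apart, with all samples in the fit. It ranged from 9.54 to 10.41 in UGE (median 10.30) and was 7.36, 7.56, 7.91, 7.71 and 7.93 in UGM. It was 9.78, 9.82, 9.70 and 10.03 in epidermis and 10.39, 10.83, 10.95 and 10.84 in dermis. In the urogenital sinus the epithelium was higher with no overlap (2.49 ± 0.17, 5.61-fold, adjusted p = 1.71e-07), while in the skin every dermis sample lay above every epidermis sample (-0.92 ± 0.14, adjusted p = 0.000653, under 2-fold). UGM was lower than dermis by -3.06 ± 0.17 (adjusted p = 5.55e-11), and UGE and epidermis overlapped (0.34 ± 0.16). The dermis samples also carried epithelial transcripts such as *Krt14*, a keratin of basal epidermal cells, at a mean of 12.79 against 13.47 in epidermis and 5.36 in UGM. Not every epithelial marker did so, as *Krt18* was 5.46 to 6.96 in dermis and 8.81 to 9.8 in UGM. Of the 15 epithelial markers 9 were called higher in dermis than in UGM and 3 lower. The part of epithelial transcripts in the dermal level of *Col7a1* was not tested. *Col4a5* and *Col4a6*, in contrast, lay lower in every dermis sample than in any epidermis sample.

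The compartment difference was called unequal at the 2 sites for 7 of the 40 genes. The test was the interaction, UGE minus UGM less epidermis minus dermis, which was higher for 4 genes and lower for 3, against 5.15% and 4.17% of all probe sets. Those higher were *Col7a1* (3.41 ± 0.24, adjusted p = 3.61e-09), *Col5a3* (2.09 ± 0.27), *Col4a6* (1.70 ± 0.21) and *Col18a1* (1.22 ± 0.21). The other probe set of *Col4a6*, with a mean of 6.89, was not called (0.94 ± 0.23, under 2-fold). Those lower were *Col13a1* (-3.25 ± 0.39, adjusted p = 4.72e-06), *Col9a2* (-1.59 ± 0.26) and *Col25a1* (-1.59 ± 0.30). The count of genes lower depended on UGE replicates 2 and 3. Without them it was 13, adding *Col1a1*, *Col1a2*, *Col3a1*, *Col5a2*, *Col6a1*, *Col6a2*, *Col6a3*, *Col9a1*, *Col12a1* and *Col14a1*, and the count of genes higher was 5, adding *Col11a1*. For *Col1a2* the interaction went from -3.36 ± 1.28 (adjusted p = 0.0781) with all samples to -4.88 ± 0.61 (adjusted p = 9.67e-06) without those replicates. Other probe sets of the added genes differed with all samples. The other probe set of *Col5a2* was called lower (-2.12 ± 0.52). That of *Col9a1* (-0.31 ± 0.17) and the bright second probe set of *Col12a1* (0.63 ± 0.17, the opposite sign) were not called. The 14 mesenchymal markers differed by a median of -4.40 between UGE and UGM and of -3.10 between epidermis and dermis, and their part in these differences was not tested.

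**Figure D4:**
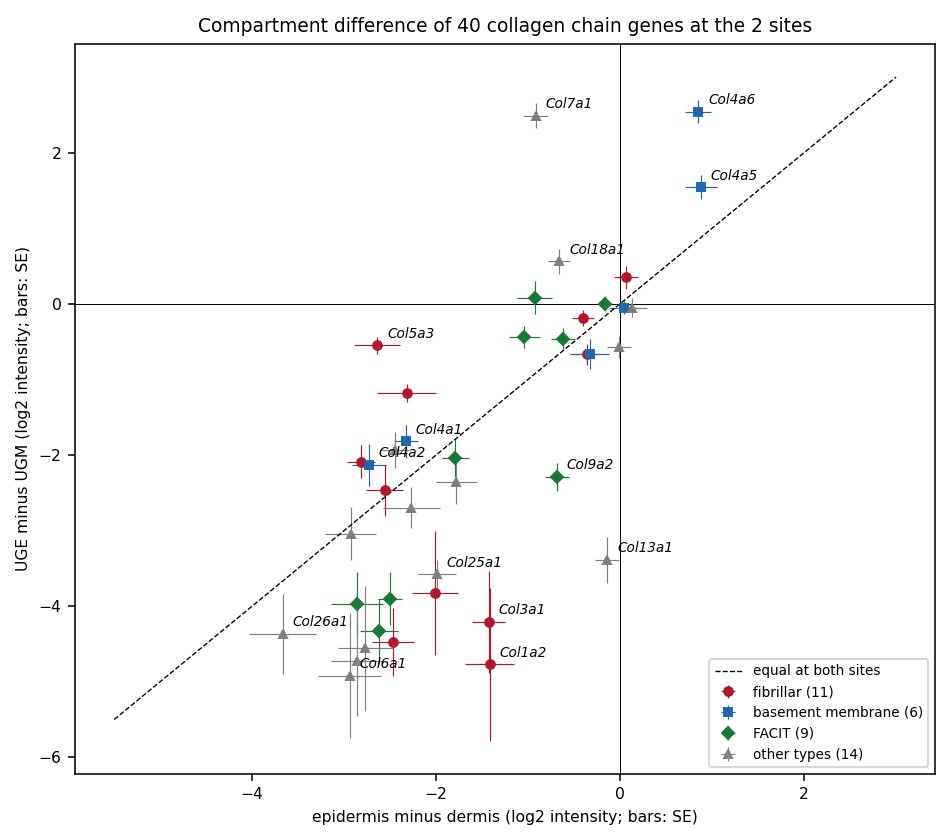
Log2 difference of 40 collagen genes between epithelium and mesenchyme, in skin (horizontal axis) and in the urogenital sinus (vertical axis), with SE bars, coloured by class, and a dashed line where both are equal. Most points lie in the lower left, *Col4a5* and *Col4a6* in the upper right, *Col7a1* in the upper left (-0.92 in skin, 2.49 in the urogenital sinus), and *Col13a1* well below the line (-0.14 and -3.39).

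The collagens with an unequal difference were of unlike classes. *Col13a1* and *Col25a1* encode transmembrane collagens, which span the cell membrane instead of being secreted as fibrils. *Col13a1* ranged from 5.06 to 6.61 in UGE (median 5.41) and was 8.80, 8.63, 9.29, 9.19 and 9.66 in UGM. It was 5.49, 5.28, 5.34 and 5.51 in epidermis and 5.49, 5.42, 5.37 and 5.90 in dermis. UGM was apart from all other samples, by 3.57 ± 0.28 from dermis (11.9-fold, adjusted p = 9e-09), and epidermis and dermis overlapped. *Col25a1* ranged from 6.68 to 7.65 in UGE (median 7.03) and was 10.79, 10.63, 10.72, 10.80 and 10.41 in UGM. It was 4.78, 5.48, 5.37 and 5.17 in epidermis and 6.63, 7.16, 7.50 and 7.47 in dermis. UGM was again the highest without overlap, 3.48 ± 0.22 above dermis (11.2-fold, adjusted p = 2.79e-10). The other probe set of *Col25a1*, with a mean of 6.98, was flat (UGE minus UGM -0.06 ± 0.10), so only the brighter of its 2 probe sets showed the difference. *Col23a1*, the remaining transmembrane collagen, was also higher in UGM than in dermis (1.54 ± 0.36) and was lower in UGE than in UGM (-3.04 ± 0.35) and in epidermis than in dermis (-2.93 ± 0.28).

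*Col5a3*, a further type V chain, showed the reverse, a level above the rest in dermis alone. It ranged from 5.04 to 5.42 in UGE (median 5.35), was 5.67, 5.87, 5.72, 5.86 and 6.22 in UGM, 6.46, 5.81, 5.34 and 5.86 in epidermis and 8.16, 8.37, 8.43 and 9.06 in dermis. The dermis samples stood apart from all others, with a difference of -2.64 ± 0.25 between epidermis and dermis (adjusted p = 3.87e-05) and of -2.64 ± 0.19 between UGM and dermis (adjusted p = 2.73e-09). The medians of skeletal muscle and adipocyte markers were also highest in dermis, at 9.08 to 10.40 and 10.51 to 11.35. Of the 3 measured adipocyte markers, *Fabp4* and *Lpl* were highest in dermis. *Adipoq* was not, at 3.57, 3.77, 3.57 and 4.68 in dermis, and was highest in epidermis replicate 1 (9.63). The part of muscle and adipocyte cells was not tested. The other probe set of *Col5a3*, with a mean of 4.19, was not called. *Col18a1*, a heparan sulphate proteoglycan of basement membranes and the source of endostatin, had means of 11.39 in UGE, 10.83 in UGM, 10.85 in epidermis and 11.50 in dermis. It differed by 0.56 ± 0.16 between UGE and UGM and by -0.66 ± 0.12 between epidermis and dermis, both under 2-fold. *Col15a1*, its relative, was called lower in the epithelium at both sites, as were *Col8a1* and *Col8a2*, the network collagens of vessels and cornea. *Col10a1*, the marker of hypertrophic cartilage, stayed between 4.56 and 5.59.

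**Figure D5:**
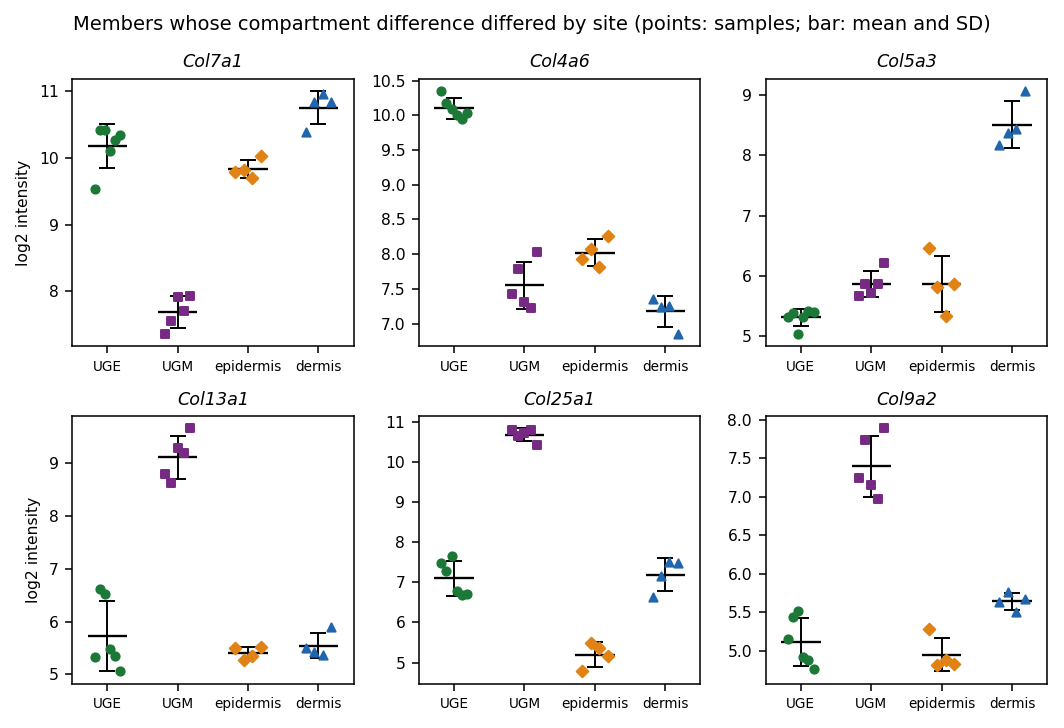
Log2 intensity in each sample (points) of 6 of the 7 genes whose compartment difference was called unequal at the 2 sites, with the mean and SD in black and a separate vertical axis for each gene. UGM is low for *Col7a1* and high for *Col13a1*, *Col25a1* and *Col9a2*, dermis is high for *Col5a3*, and UGE is high for *Col4a6*.

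By their brightest probe sets, UGM was higher than dermis in the transmembrane collagens and lower in several fibrillar and FACIT chains and in *Col7a1*. Between UGM and dermis 4 of 40 genes were called higher in UGM and 7 lower, against 6.78% and 5.37% of all probe sets, with a median log2 difference of -0.34 (-0.05 over all probe sets). The 4 higher were *Col9a2*, *Col13a1*, *Col23a1* and *Col25a1*, the 3 transmembrane collagens and a type IX chain. The other probe set of *Col25a1* was flat here too (-0.0 ± 0.10). Those of *Col23a1* gave 1.41 ± 0.37 (called) and 1.57 ± 0.49 (limma adjusted p = 0.017, not called). The *Col23a1* call was also lost without dermis replicate 1. The 7 lower were *Col5a1* (-1.28 ± 0.33), *Col5a3*, *Col7a1*, *Col12a1* (-1.36 ± 0.32), *Col15a1* (-1.07 ± 0.24), *Col19a1* (-1.21 ± 0.17) and *Col24a1* (-1.42 ± 0.24). *Col1a2* and *Col3a1*, at -0.43 ± 0.92 and -0.26 ± 0.62, were not called. These errors came from the fit of all 4 groups, which takes in the spread of UGE. In a fit of UGM and dermis alone 3 more genes passed, *Col1a1* (-1.01, adjusted p = 4.08e-05) and *Col6a3* (-1.59, adjusted p = 5.07e-06) as lower in UGM and *Col9a1* (1.31, adjusted p = 0.000831) as higher, and these 3 also passed in the fit of all groups without UGE replicates 2 and 3. The other probe set of *Col1a1* was called lower in UGM in the fit of all groups too (-2.46 ± 0.43).

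Between UGE and epidermis 5 of 40 genes were called higher in UGE and 11 lower, against 6.98% and 5.01% of all probe sets, with a median of -0.26 (-0.05 over all probe sets). The 5 higher were *Col4a5*, *Col4a6*, *Col11a1* (1.73 ± 0.21), *Col23a1* (1.42 ± 0.35) and *Col25a1* (1.89 ± 0.21). *Col23a1* was not called without UGE replicates 2 and 3 (0.99 ± 0.30, adjusted p = 0.0131), in a fit of UGE and epidermis alone (adjusted p = 0.0263) or with either of its other probe sets (both 1.22, adjusted p = 0.0108 and 0.0509). The other probe set of *Col25a1* was not called either (-0.18 ± 0.10). The 11 lower included *Col3a1* (-3.04 ± 0.60), *Col5a2* (-2.76 ± 0.41), *Col6a3* (-3.45 ± 0.65), *Col12a1* (-2.76 ± 0.31) and *Col14a1* (-1.98 ± 0.39), for which UGE and epidermis were apart. For the others, *Col1a1*, *Col1a2*, *Col5a1*, *Col6a1*, *Col6a2* and *Col8a1*, the UGE and epidermis samples overlapped. The bright second probe set of *Col12a1* was not called here (-0.78 ± 0.12, under 2-fold). Without UGE replicates 2 and 3 *Col8a1* was not called (-0.81 ± 0.26, adjusted p = 0.0192), *Col26a1* was (-1.63 ± 0.35, adjusted p = 0.00109), and the other 10 remained called. Of these 10 the fold moved by more than 1.5 times for 8, from 7.16 to 17.6 for *Col1a1*, 13.8 to 39.7 for *Col1a2*, 8.21 to 16.2 for *Col3a1* and 6.8 to 10.7 for *Col5a2*. For the type VI chains it went from 7.64 to 18.7 (*Col6a1*), 6.47 to 15.5 (*Col6a2*) and 10.9 to 23.7 (*Col6a3*), and for *Col14a1* from 3.94 to 6.24. The epidermis samples had higher medians of mesenchymal markers than most UGE samples (7.84 to 9.56 against 5.29 to 8.19), and their part in these 11 differences was not tested. The count of 11 was 1 by the methods' t-test (*Col12a1*), 4 in a fit of UGE and epidermis alone, 7 without UGE replicate 4, 5 or 6 or epidermis replicate 1, and 6 without epidermis replicate 2 or 3.

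Many genes that process or bind collagen were also lower in the epithelia. Of 40 listed genes of collagen biosynthesis, cross-linking and binding, 35 were tested, and 18 were called lower and 1 higher in UGE than in UGM, while 21 were called lower and 1 higher in epidermis than in dermis. Over all probe sets 7.4% were called lower and 5.85% higher in UGE, and 7.6% lower and 6.07% higher in epidermis. Among the enzymes that hydroxylate or glycosylate the chains 5 of 14 were lower in UGE and 9 of 14 in epidermis, with *Plod1*, a lysyl hydroxylase, at -2.75 ± 0.28 and -3.22 ± 0.27. *Serpinh1*, the chaperone Hsp47 that binds folded procollagen, fell by 1.46 in UGE and by 1.99 in epidermis on the log2 scale (adjusted p = 1.16e-05 and 4.85e-05). *P4ha1* and *P4ha2*, catalytic chains of prolyl 4-hydroxylase, were lower in epidermis than in dermis (-1.79 ± 0.15 and -2.02 ± 0.18) and were among 6 listed genes with a higher interaction (2.00 ± 0.17 and 1.89 ± 0.21). The interaction was lower for 3 listed genes, and the shares over all probe sets were 5.15% higher and 4.17% lower. *Lox*, the lysyl oxidase that starts cross-linking, fell by 5.30 in UGE and by 3.44 in epidermis, with 3 of 4 and 2 of 4 cross-linking genes lower. Of the genes for removal of the propeptides 4 of 5 were lower at each site, among them *Pcolce*, an enhancer of procollagen C-proteinase, by 3.47 at both. In UGE *Pcolce* was 10.15 and 10.09 in replicates 2 and 3 and 7.24 to 7.89 in the others. *Mia3*, a listed export gene, was lower in replicates 2 and 3 (9.02 and 9.04) than in the others (9.8 to 10.63). Values without these replicates are given for the collagens only. The receptors split, as *Ddr2*, a receptor for fibrillar collagen, fell by 5.0 in UGE and fell by 3.06 in epidermis, while *Ddr1*, an epithelial collagen receptor, was the 1 listed gene called higher in the epithelium at each site (1.27 ± 0.16 and 1.23 ± 0.17, adjusted p = 4.79e-05 and 0.000354).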

How the data were processed

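Total RNA of 19 pools was hybridised to MOE430 2.0 arrays. The authors deposited linear intensity per probe set, normalized between arrays; their methods name GCOS 1.4, MAS5 and PLIER, but the sources used here do not say which of them made the table. Array medians were 75.89 to 81.43 and 37302 to 39105 probe sets per array exceeded 20. The intensities were put on a log2 scale as they stood. The table holds 45101 probe sets, 64 of them controls that were set aside. The 41549 that exceeded 20 in 1 or more samples went into limma 3.58.1 in R 4.3.3 (lmFit, eBayes, 2-sided, Benjamini-Hochberg over all tested probe sets). This step was checked on simulated data with the same spread in every group. Such a check does not cover unequal spread, as in *Col1a2* (SD 2.57 in UGE and 0.02 in UGM). UGE vs UGM and epidermis vs dermis had fits of their own, and the interaction, UGM vs dermis and UGE vs epidermis came from 1 fit of all 4 groups. Calls used the methods' thresholds, an adjusted p under 0.01 and over 2-fold, with their unpaired t-test as an alternative.

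Gene names are those of GEO's platform annotation, and 34945 probe sets had 1 gene symbol. Values in every sample are given for the type IV chains, for up to 4 called genes of each other class with the largest difference and for genes higher in an epithelium. *Col5a3*, *Col13a1*, *Col25a1* and the markers *Hapln1*, *Sox9*, *Snai2*, *Dcn*, *Lum* and *Fap* were added after their values were seen. The markers *Cnmd*, *Krt18*, *Adipoq*, *Fabp4* and *Lpl* and the listed gene *Mia3* were added in the same way. Genes, lists and markers were chosen with earlier results of these data known. Deviations from the group means correlated positively between same-numbered epidermis and dermis samples (0.343, 0.108, 0.264 and 0.168), but not in every case between the other pairs of groups. Of the skin samples, only those of replicate 1 were each other's closest match. UGE and UGM replicate 1 were also each other's closest match (0.648), whereas the other same-numbered UGE and UGM samples lay between -0.406 and 0.138. The number of arrays limits the precision.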

Additional observations from a re-analysis of the deposited data

Results flagged for a closer look

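Samples standing apart from their group were looked for in 164 combinations of gene and tissue and found in 10, where chance alone gives about 1 in 20. Dermis replicate 1 was the lowest of its group for *Col1a2* (14.71 against 14.89 to 14.90), *Col4a1* (13.31 against 13.67 to 13.73), *Col4a4* (4.61 against 5.50 to 5.53) and *Col6a3* (13.40 against 13.90 to 13.96). The same sample had the highest median of epithelial markers in the dermis, 10.64, and the lowest of mesenchymal markers, 11.71, and their part was not tested. Epidermis replicate 1 was the highest of its group for *Col9a2* (5.28 against 4.82 to 4.88) and *Col10a1* (5.59 against 4.93 to 5.01). In the urogenital sinus, *Col3a1* was high in UGM replicate 1 (14.59 against 14.42 to 14.47), *Col6a3* low in UGM replicate 3 (11.94 against 12.24 to 12.32), *Col5a3* low in UGE replicate 3 (5.04 against 5.32 to 5.42) and *Col7a1* low in UGE replicate 1 (9.54 against 10.10 to 10.41).

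A compartment difference that was unequal at the 2 sites, by the interaction test, was found for 7 of 40 tested collagens. The interaction was higher for 4 (10.0%) and lower for 3 (7.5%), against 5.15% and 4.17% of all probe sets. On the log2 scale it was 3.41 for *Col7a1*, 2.09 for *Col5a3*, 1.70 for *Col4a6* and 1.22 for *Col18a1*, where the urogenital difference was the higher of the 2. It was -3.25 for *Col13a1*, -1.59 for *Col9a2* and -1.59 for *Col25a1*, where the urogenital difference was the lower. Only *Col7a1* and *Col18a1* of these had means that lay in opposite orders at the 2 sites.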

How the results depend on the processing

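Of 27 calls between UGE and UGM, 18 held under every alternative, as did 13 of 24 between epidermis and dermis, 2 of 7 interaction calls, 4 of 11 between UGM and dermis and 2 of 16 between UGE and epidermis. Limma's treat, which tests against a 2-fold change, left 1 interaction call higher and 1 lower, 2 higher and 2 lower between UGM and dermis, and 2 higher and 2 lower between UGE and epidermis. Between UGE and UGM it ended the calls of *Col1a1*, *Col1a2*, *Col4a1*, *Col4a2*, *Col4a5*, *Col15a1*, *Col16a1* and *Col24a1*. In the skin it ended those of *Col1a1*, *Col1a2*, *Col3a1*, *Col8a1*, *Col8a2*, *Col19a1*, *Col24a1* and *Col25a1*. Interaction calls lower numbered 3 with all samples, 7 at an adjusted p under 0.05, 3 to 7 when 1 replicate was left out (7 without UGE replicate 2 or 3) and 13 without both of these. Calls lower in UGM than in dermis fell to 4 with log2(value + 50). Calls higher in UGE than in epidermis fell to 3 with the mean of all probe sets of a gene. Calls lower in UGE than in epidermis were 11 as reported, 1 by the methods' t-test, 4 with only the compared groups in the fit and 6 to 11 when 1 replicate was left out. With the replicate number as a block they were 6, although these samples share only a number, and the block left 22 of 24 calls lower in UGE than in UGM (without *Col1a1* and *Col1a2*) and all 24 in the skin. With the brightest plain probe set, whose level was low, the difference of *Col26a1* between UGE and epidermis turned to 0.14. The cause of these changes was not tested. Over single genes and alternatives, 2699 results kept their direction and side of the threshold, 144 lost the call, 53 gained it and 1 changed direction. Levels near the lower quartile of the arrays limit what can be said of *Col4a3*, *Col6a5*, *Col10a1*, *Col11a2* and *Col24a1*. Among called genes, the epithelial means of *Col8a2* (4.69 in UGE and 4.48 in epidermis) and *Col9a2* (5.11 and 4.95) were also close to that level. The skin call of *Col8a2* was lost with log2(value + 50), while the calls of *Col9a2* were not.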
